A study of Mus musculus with 10 samples.

Results

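10 integrin genes were examined in cultured primary mouse lung fibroblasts of wild-type and Mrc2 knockout genotype. They were chosen by name: Itga5, Itga4 and Itga9, whose products bind fibronectin and related ligands, Itga3, Itga6 and Itga7, whose products bind laminin, and Itgav with its partners Itgb3, Itgb5 and Itgb8, whose products bind vitronectin, fibronectin or latent TGF-beta. All 10 were found among the 54532 genes of the count table, and all 10 passed the filter on low counts, which kept 14360 genes. Mrc2 encodes an endocytic receptor that takes up collagen for breakdown in lysosomes, and the series, by its title, concerns the proliferation of lung fibroblasts that lack it. The samples were 5 wild-type and 5 Mrc2 knockout libraries of poly(A)-selected RNA, all grown without an added stimulus in DMEM with 10% fetal bovine serum and all carrying the same batch label. The sources used here do not give strain, age, sex or the extent of the deletion, and no transgene or other allele is named.

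An integrin is a pair of membrane chains, an alpha and a beta, that join the matrix outside the cell to actin inside it. Most alpha chains of the set pair with the beta 1 chain, while the alpha v chain also pairs with beta 3, beta 5, beta 6 and beta 8. In lung fibroblasts alpha v integrins are known for pulling on the latency peptide of TGF-beta, which frees the active cytokine, and the alpha 5 beta 1 pair assembles fibronectin into fibrils. Transcript counts do not show how much of each pair reaches the cell surface.

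Library totals ranged from 19603933 to 29944615 counts, and 3 counts correspond to at most 0.153 per 1e6 counts of the unscaled total. Levels in CPM are counts divided by the TMM-scaled library size in units of 1e6. Mrc2 itself was at 843 ± 176 CPM in wild-type and 242 ± 30.4 in knockout libraries (SD, n = 5 each), with a log2 fold change of -1.80 with an SE of 0.17 (edgeR adjusted p = 0.0029), and the lowest wild-type library (568 CPM) was above the highest knockout library (282 CPM). All 6 fibroblast markers were measured, with summed levels of 11333 to 21763 CPM in wild-type and 17353 to 30276 in knockout libraries. Col1a1 and Col1a2 made up most of these sums. Of the 6 markers 5 had a log2 fold change above 0 and 1 below (48.4% of all genes were above), and edgeR called 0. The 1 below was Dcn, at 55.7 to 310 CPM in wild-type and 54.2 to 147 in knockout libraries. The cultures also held leukocyte transcripts: all 10 leukocyte markers were measured, with sums of 2363 to 11597 CPM in wild-type and 2849.7 to 6302 in knockout libraries. Of 7 epithelial markers, Cldn18 was at 0 in every library and Epcam and Nkx2-1 had at most 2 counts. The keratin genes Krt8 and Krt18, which mesothelium also expresses, were above 2 CPM in every library and reached 29.5 and 28.5 CPM, and Cdh1 was at 0.383 to 1.47 CPM. The 6 endothelial markers summed to at most 10.8 CPM. Col1a1 was at 8974 CPM in knockout replicate 5 and at 14320.1 to 17578 CPM in the other knockout libraries. Values without that library are given below because edgeR called 203 genes (1.39% of genes tested) in its absence and 2 with all libraries, so none of them is separate support.

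The integrin set was led by the fibronectin receptor chain Itga5 and by Itgb5. Divided by the deposited gene length, Itga5 was at 159 ± 40.2 and Itgb5 at 151 ± 19.3 CPM per kilobase (SD over all 10 libraries), and Itga5 was above Itgb5 in 5 of the 10. Itgav followed at 23.5 ± 7.24 CPM per kilobase, below both in every library. Next came Itga3 at 7.43 ± 3.14, Itga7 at 3.54 ± 1.19, Itga9 at 3.40 ± 1.04, Itga6 at 2.00 ± 0.785 and Itgb3 at 1.78 ± 0.642 CPM per kilobase. Within that run the neighbours Itga7 and Itga9, and Itga6 and Itgb3, changed places between libraries. The lowest were Itga4 at 0.362 ± 0.175 and Itgb8 at 0.150 ± 0.0651 CPM per kilobase. Itgb8 rested on 14 to 79 counts a library and Itga4 on 30 to 248, so their values carry the most counting error.

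**Figure D1:**
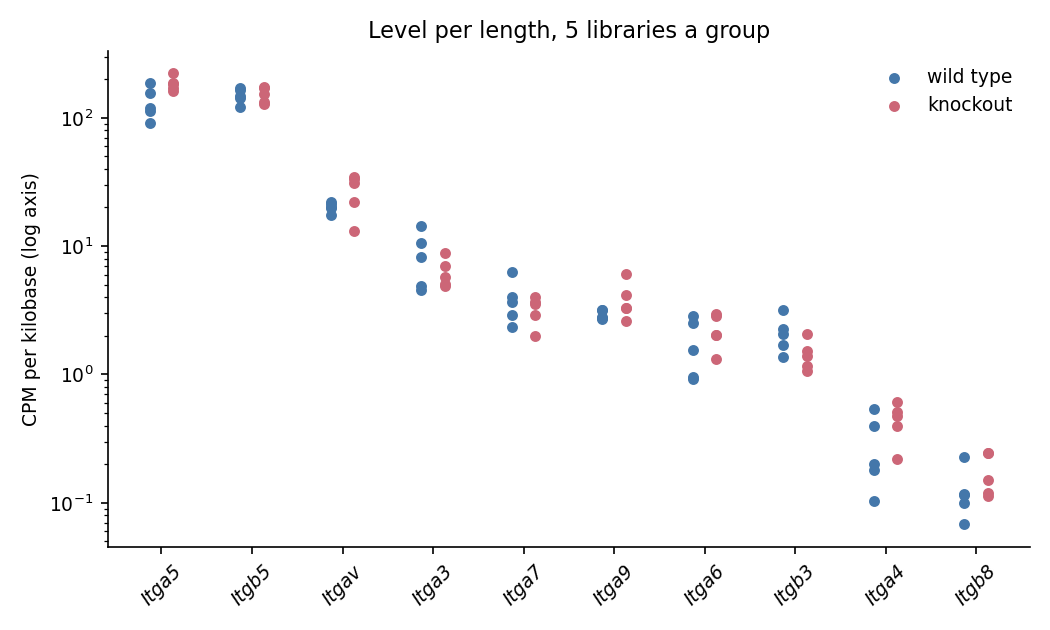
Level of each of the 10 integrin transcripts in CPM per kilobase of gene length (log axis), 1 point per library, wild type in blue and knockout in red. Itga5 and Itgb5 lie near 159 and 151, Itgav near 23.5, and Itgb8 lowest near 0.150.

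The start regions of the 3 most abundant members are shown because these carry most of the integrin transcript in the set. They come from RefSeq (GRCm38.p6, the assembly of mm10) and run from 250 bases before to 50 bases after the annotated start, written 5′ to 3′ on the strand of the gene. Itga5 is at chr15:103366742-103367041 (minus strand), Itgb5 at chr16:33829415-33829714 and Itgav at chr2:83724147-83724446 (both plus strand). Capitals mark the GC box GGGCGG, searched on both strands and so also seen as CCGCCC.
Itga5: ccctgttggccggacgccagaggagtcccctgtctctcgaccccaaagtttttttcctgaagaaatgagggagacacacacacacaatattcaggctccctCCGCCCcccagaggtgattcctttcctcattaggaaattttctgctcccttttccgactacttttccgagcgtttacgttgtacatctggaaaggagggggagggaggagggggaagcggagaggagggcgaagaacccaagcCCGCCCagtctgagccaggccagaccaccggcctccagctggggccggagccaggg
Itgb5: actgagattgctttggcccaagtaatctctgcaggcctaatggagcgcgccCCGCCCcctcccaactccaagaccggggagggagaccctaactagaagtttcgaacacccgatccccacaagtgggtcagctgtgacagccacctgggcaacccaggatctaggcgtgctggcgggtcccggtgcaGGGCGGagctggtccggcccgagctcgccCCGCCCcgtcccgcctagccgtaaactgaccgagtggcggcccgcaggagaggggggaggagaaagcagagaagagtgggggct
Itgav: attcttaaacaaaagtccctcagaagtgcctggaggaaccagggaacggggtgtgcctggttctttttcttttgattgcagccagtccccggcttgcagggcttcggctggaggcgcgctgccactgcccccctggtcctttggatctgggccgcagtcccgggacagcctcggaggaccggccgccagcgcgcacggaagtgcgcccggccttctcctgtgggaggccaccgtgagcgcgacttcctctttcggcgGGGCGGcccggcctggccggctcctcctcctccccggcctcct
The GC box was found 2 times for Itga5, 3 times for Itgb5 and 1 time for Itgav. It occurs in 35.7% of the 32851 promoter windows of the same length. The TATA box TATAAA (13.6% of windows), the CCAAT box CCAAT (37.4%) and the AP-1 motif TGANTCA (7.81%), each searched on both strands, were not found in these 3 windows. Their GC content was 58.7% for Itga5, 65.7% for Itgb5 and 67.3% for Itgav, beside a median of 52.7% over all windows. Of the 10 members 7 had a window in the RefSeq table, and Itga6, Itga7 and Itgb3 had none. Among the members at low levels, the window of Itga4 held 1 GC box (64.3% GC) and those of Itga9 and Itgb8 held 0 (56.7% and 60.7% GC). The Itga9 window lies 105002 bases and the Itgb8 window 526 bases from the gene start in the count table, so neither covers that start. For Itga3, the window 87 bases from the table's start held 3 GC boxes (66.7% GC). Another Itga3 window, 7603 bases from it, held 1 (52.3% GC). A relation between GC boxes and level was not tested.

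None of the 10 integrins passed the test between genotypes. EdgeR's quasi-likelihood test called 0 of 10 with Benjamini-Hochberg adjustment over all 14360 genes, where the background was 0.0139% of genes called, and DESeq2 and limma-voom also called 0 of 10 (backgrounds of 1.69%, with 1.02% higher and 0.675% lower, and of 0.00696%). With an unadjusted p under 0.05 there were 2 members, Itga5 with a higher and Itgb3 with a lower mean in knockout, or 2 of 10 against 13.3% of all genes (7.19% higher and 6.1% lower). Of the 10 log2 fold changes 7 were above 0, with a median of 0.38, beside 48.4% above 0 and a median of -0.01 over all genes. No member had groups that did not overlap, a pattern seen in 2.05% of all genes (0.961% higher and 1.09% lower). On simulated counts modelled on these libraries, 12% of genes given a 1.5-fold change and 40% of those given a 2-fold change were called. Differences of this size would therefore often be missed. The simulated counts gave 128 calls and the real libraries 2, so the adjusted threshold asked for a smaller unadjusted p in the real libraries. There the ligand gene Npnt, at 2.07-fold with an unadjusted edgeR p of 5.8e-05, was not called (adjusted p = 0.141). The percentage called at that stricter cutoff was not tested.

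**Figure D2:**
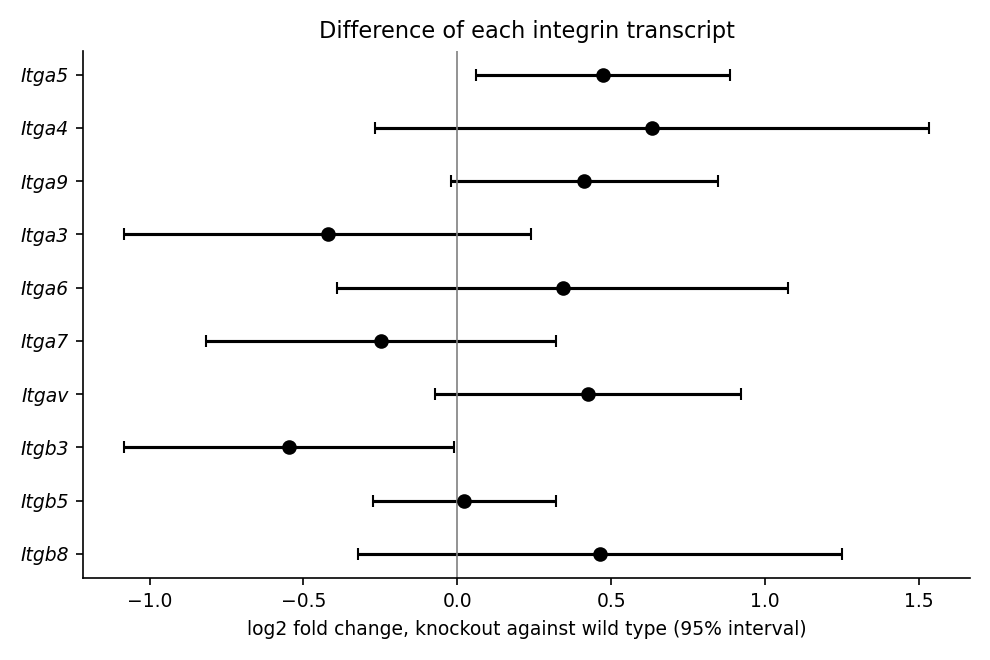
Log2 fold change (knockout against wild type) of each integrin transcript with its 95% interval from edgeR, not adjusted for the number of genes. The intervals of Itga5 (0.06 to 0.89) and Itgb3 (-1.08 to -0.01) lie to either side of 0 and the other 8 include 0.

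**Figure D3:**
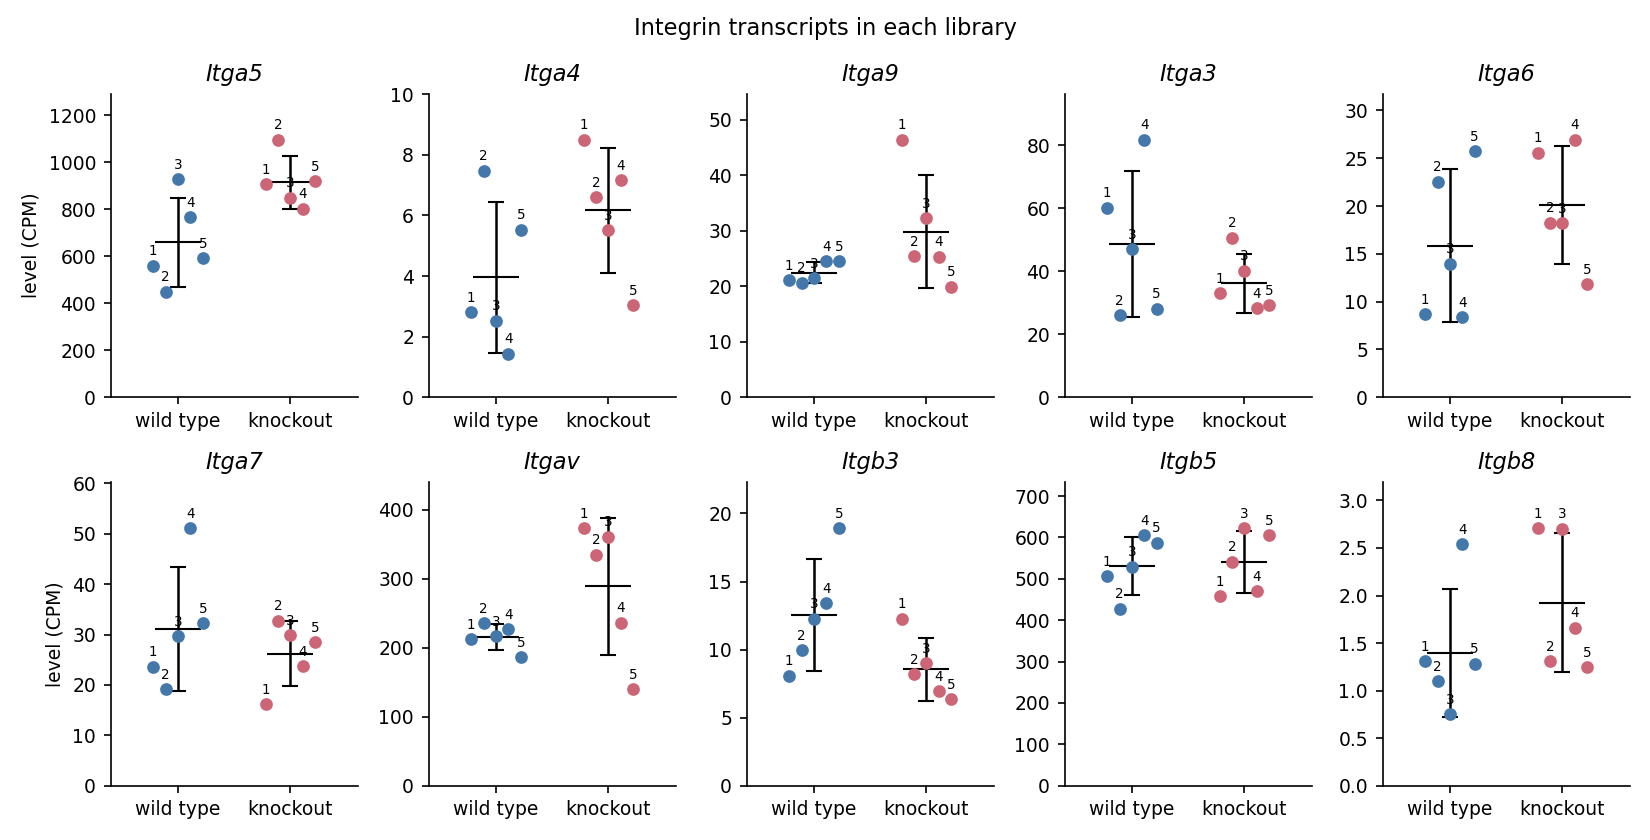
CPM of each integrin transcript in the 5 wild-type (blue) and 5 knockout (red) libraries, numbered by replicate, with the mean and SD as bars. Groups overlap for all 10 genes, and knockout replicate 5 is the lowest of all libraries for Itgav.

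Among the fibronectin receptors, Itga5 (ENSMUSG00000000555; mm10 chromosome 15, 103344286 to 103366763, minus strand) encodes the alpha chain of the main fibronectin receptor. It was measured at 559, 449, 927, 765 and 592 CPM in wild-type replicates 1 to 5 and 906, 1095, 849, 802 and 918 CPM in knockout replicates 1 to 5. All 5 knockout libraries lay above the wild-type mean, but wild-type replicate 3 was higher than every knockout library except replicate 2. The log2 fold change was 0.47 (SE 0.19, 95% interval 0.06 to 0.89, edgeR adjusted p = 0.349), and it ranged from 0.35 to 0.63 when single libraries were left out. The spread was larger in wild type, where the coefficient of variation was 28.6%, than in knockout, where it was 12.2%. That difference in spread was not tested.

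The highest and the lowest wild-type library for Itga5 were also the highest and the lowest for a sum of contractile markers, most of it Acta2. The 7 markers of smooth muscle and pericytes, most of which cultured fibroblasts also make, were all measured, with the pericyte marker Rgs5 lowest at 0.150 to 1.43 CPM. Their sum was 5713, 3659, 11881, 7934 and 5561 CPM in wild-type replicates 1 to 5, with replicates 3 and 4 highest and replicate 2 lowest for both measures and the other replicates in another order. In knockout the sum was 8517, 7635, 7244, 6811 and 11984 CPM, and Itga5 was highest in replicate 2, not in replicate 5. Taken singly, Acta2, Des and Cnn1 had the same highest and lowest wild-type library as the sum, and the other markers did not. Among wild-type libraries Myh11 was highest in replicate 4 (386 CPM), Cspg4 in replicate 5 (47.0 CPM) and Notch3 in replicate 2 (27.4 CPM). In bulk RNA the number of cells of a type and the RNA per cell cannot be told apart, and the part of contractile cells in the Itga5 values was not tested.

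Itga4 (ENSMUSG00000027009; chromosome 2, 79255426 to 79333123, plus strand) encodes an alpha chain that binds fibronectin and the adhesion molecule VCAM1 and is best known from leukocytes. It was at 2.80, 7.48, 2.52, 1.44 and 5.52 CPM in wild type and 8.50, 6.61, 5.51, 7.16 and 3.04 CPM in knockout. The groups overlapped over most of their range, and the log2 fold change was 0.63 (SE 0.41, edgeR adjusted p = 0.493). It was 1.00 without wild-type replicate 2 (adjusted p = 0.208) and 0.42 without wild-type replicate 4 (adjusted p = 0.615). Exons of Itga4 share up to 905 bases with Cerkl on the other strand, which had 1 to 20 counts a library, and no source used here says whether counting used strand. Itgav and Itga7 likewise overlap Gm13684 and Mettl7b on the other strand, which had at most 11 and 5 counts.

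Itga9 (ENSMUSG00000039115; chromosome 9, 118606690 to 118901003, plus strand) encodes an alpha chain that binds tenascin C and the alternative EDA segment of fibronectin. Wild-type libraries were close together at 21.1, 20.6, 21.5, 24.6 and 24.6 CPM. Knockout libraries were at 46.4, 25.4, 32.2, 25.3 and 19.95 CPM, so that replicates 1 to 4 lay above every wild-type library and replicate 5 below every one. The log2 fold change was 0.41 (SE 0.20, edgeR adjusted p = 0.393). It was 0.19 without knockout replicate 1 (adjusted p = 0.701) and 0.52 without knockout replicate 5 (adjusted p = 0.0872).

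Among the laminin receptors, Itga3 (ENSMUSG00000001507; chromosome 11, 95044474 to 95076801, minus strand) encodes an alpha chain for laminins of epithelial basement membranes. It was at 60.2, 26.003, 47.0, 81.7 and 28.1 CPM in wild type and 32.9, 50.6, 40.2, 28.2 and 29.2 CPM in knockout. All knockout values lay within the wild-type range, and the log2 fold change was -0.42 (SE 0.30, edgeR adjusted p = 0.524). It was -0.16 without wild-type replicate 4 (adjusted p = 0.785).

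The libraries high in Itga3 were those with a high sum of mesothelial markers, which come from the cell layer that lines the lung surface. All 5 mesothelial markers (Msln, Upk3b, Wt1, Lrrn4 and Krt19) were measured and none was at 0, with sums of 82.6 to 429 CPM in wild-type and 61.0 to 208 in knockout libraries. The sum was 429 CPM in wild-type replicate 4, 232 in wild-type replicate 1, 208 in knockout replicate 2, 171 in wild-type replicate 3 and 163 in knockout replicate 3. These are the 5 highest libraries of that sum and of Itga3, in the same order. Upk3b made up most of the sum in wild-type replicate 4, at 268 CPM. Taken singly, Msln and Upk3b gave that order, and Wt1, Lrrn4 and Krt19 did not. Krt19 was at 9.43 CPM in wild-type replicate 4 and highest in wild-type replicate 3, at 28.3 CPM. The epithelial marker sum was also highest in wild-type replicate 4, at 58.5 CPM. The part of mesothelial or epithelial cells in the Itga3 values was not tested. Wild-type replicate 4 was also the highest library for the laminin receptor gene Itga7.

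Itga7 (ENSMUSG00000025348; chromosome 10, 128933818 to 128958282, plus strand) encodes the laminin receptor chain typical of muscle. It was measured at 23.6, 19.1, 29.7, 51.1 and 32.2 CPM in wild type and 16.2, 32.8, 29.9, 23.7 and 28.4 CPM in knockout. Without wild-type replicate 4 the log2 fold change went from -0.25 (SE 0.26, edgeR adjusted p = 0.663) to -0.0039 (adjusted p = 0.995). It was -0.39 without wild-type replicate 2 (adjusted p = 0.377) and -0.12 without knockout replicate 1 (adjusted p = 0.893).

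Itga6 (ENSMUSG00000027111; chromosome 2, 71745616 to 71858416, plus strand) encodes a laminin receptor chain found on epithelium, endothelium and platelets. It was at 8.68, 22.5, 14.0, 8.38 and 25.8 CPM in wild type and 25.6, 18.2, 18.2, 26.9 and 11.8 CPM in knockout. High and low libraries occurred in both groups, and the log2 fold change was 0.34 (SE 0.34, edgeR adjusted p = 0.638). Single libraries moved it from 0.18 without wild-type replicate 4 to 0.57 without wild-type replicate 5. It was also 0.19 without wild-type replicate 1 and 0.22 without knockout replicate 4, and none of these 4 values passed the test (adjusted p of 0.801, 0.581, 0.833 and 0.814).

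The 4 libraries with the most Itga6 were the 4 with the most Ptprc, the pan-leukocyte marker CD45. Ptprc was at 89.2 and 72.5 CPM in wild-type replicates 5 and 2 and at 61.5 and 53.0 CPM in knockout replicates 4 and 1, and at 25.0 to 42.2 CPM in the other libraries. Of the same 4 libraries 3 were also the highest for Itga4. The sum of all 10 leukocyte markers, of which Lyz2 makes up most, was highest in wild-type replicate 5 at 11597 CPM and gave another order, with only wild-type replicate 2 between it and knockout replicate 5 at 6302 CPM. Taken singly, Adgre1 and Csf1r were highest in the same 4 libraries as Ptprc, and the other leukocyte markers were not. Cd14 was lowest of all libraries in knockout replicate 1, at 47.5 CPM. The part of leukocytes in the Itga6 and Itga4 values was not tested.

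**Figure D4:**
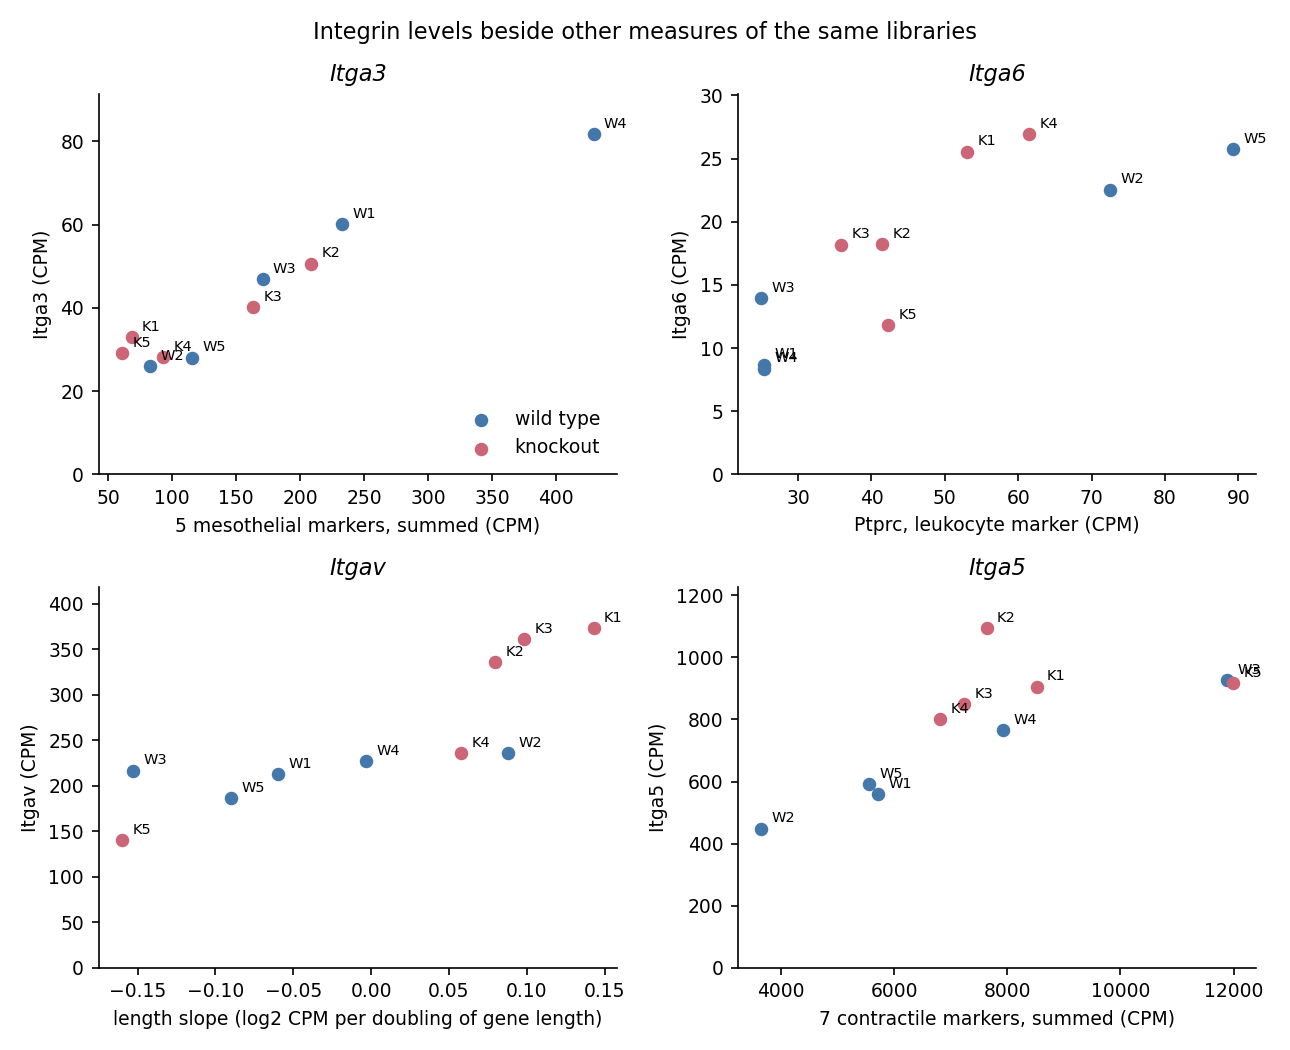
Each panel plots an integrin transcript in CPM (vertical) against another measure of the same 10 libraries (horizontal), wild type in blue (W) and knockout in red (K) with replicate numbers. Itga3 rises to 81.7 CPM in W4, where mesothelial markers sum to 429 CPM, and Itgav is lowest in K5, where the length slope is -0.16; the pairings were chosen after the values were seen.

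Among the receptors of latent TGF-beta and vitronectin, Itgav (ENSMUSG00000027087; chromosome 2, 83724397 to 83806916, plus strand) encodes the shared alpha v chain. Wild-type libraries were at 213, 236, 217, 227 and 186 CPM, with a coefficient of variation of 8.74%. Knockout libraries were at 373, 335, 361, 236 and 140.3 CPM, with a coefficient of variation of 34.3%. Knockout replicates 1 to 3 lay above the wild-type range, replicate 4 was level with its upper end and replicate 5 was the lowest of all 10. The log2 fold change was 0.42 (SE 0.23, 95% interval -0.07 to 0.92, edgeR adjusted p = 0.423), and 0.59 without knockout replicate 5 (adjusted p = 0.0513).

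Itgav has a long deposited gene length, 10744 bases, so its level was set beside how long genes fared in each library. The length slope of a library is the slope of log2 CPM, centred per gene, on log2 gene length over the genes tested. It was -0.06, 0.09, -0.15, -0.00335 and -0.09 in wild-type replicates 1 to 5 and 0.14, 0.08, 0.10, 0.06 and -0.16 in knockout replicates 1 to 5. The 3 knockout libraries with the most Itgav were 3 of the 4 with the highest slope, and the library with the least had the lowest slope. Wild-type libraries did not follow that order. Replicate 3, with the lowest wild-type slope, was at 217 CPM, above replicates 1 and 5 at 213 and 186 CPM. Wild-type replicate 2, with a slope of 0.09, was at 236 CPM, and knockout replicate 2, with 0.08, at 335 CPM. With each library's length trend removed as an offset, the log2 fold change was 0.19 for Itgav (edgeR adjusted p = 0.5998), 0.27 for Itga9 (0.490), 0.39 for Itga4 (0.623), 0.17 for Itga6 (0.814) and 0.25 for Itgb8 (0.735). Itga5 was at 0.44 (0.354) under the same offset. The members with a lower mean in knockout moved away from 0, Itga7 to -0.37 (0.560), Itgb3 to -0.62 (0.306) and Itga3 to -0.48 (0.492), and Itgb5 was at 0.07 (0.815). The slope was above 0 in knockout replicates 1 to 4 and below 0 in every wild-type library except replicate 2, so it partly went with genotype. The offset can remove a genotype difference of long genes along with a technical trend, and these cannot be told apart here.

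Itgb5 (ENSMUSG00000022817; chromosome 16, 33829665 to 33949338, plus strand) encodes the beta chain of a vitronectin receptor that also frees TGF-beta. It was at 506, 427, 529, 605 and 587 CPM in wild type and 458, 541, 622, 471 and 605 CPM in knockout. It had the smallest SD of log2 CPM over all 10 libraries among the members (0.19), with coefficients of variation of 13.3% and 13.9%, and the groups covered nearly the same range. The log2 fold change was 0.02 (SE 0.14, edgeR adjusted p = 0.947), and its 95% interval runs from 0.827-fold to 1.25-fold. Its sign turned when wild-type replicate 2, knockout replicate 3 or knockout replicate 5 was left out (-0.05, -0.03 and -0.02), and the values with other libraries left out reached 0.07.

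Itgb3 (ENSMUSG00000020689; chromosome 11, 104608000 to 104670476, plus strand) encodes the beta chain of the alpha v beta 3 receptor for vitronectin and fibronectin. It was at 8.08, 9.94, 12.3, 13.4 and 18.9 CPM in wild type and 12.3, 8.18, 9.01, 6.92 and 6.33 CPM in knockout. All 5 knockout libraries lay below the wild-type mean and 2 of them below every wild-type library. The log2 fold change was -0.55 (SE 0.25, 95% interval -1.08 to -0.01, edgeR adjusted p = 0.371). Without wild-type replicate 5, the library with the highest leukocyte marker sum, it was -0.36 (adjusted p = 0.594), and the part of leukocytes was not tested.

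Itgb3 lies 622 kilobases from Mrc2 on the same chromosome. Of 40 other tested genes within 2 megabases of Mrc2, Itgb3 included, 5 had an unadjusted p under 0.05, or 12.5% beside 13.3% of all genes, and 0 passed edgeR's test after adjustment. The smallest p among them was that of Cyb561, which encodes a cytochrome b561 protein, with a log2 fold change of -0.99 with an SE of 0.24 (edgeR adjusted p = 0.231). Its groups did not overlap, as in 1.09% of all genes with knockout lower. Itga3 is on the same chromosome at a distance of 10.2 megabases.

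Itgb8 (ENSMUSG00000025321; chromosome 12, 119158022 to 119238802, minus strand) encodes the beta chain of the alpha v beta 8 integrin, which activates latent TGF-beta. It was at 1.31, 1.10, 0.750, 2.54 and 1.28 CPM in wild type and 2.71, 1.31, 2.70, 1.66 and 1.25 CPM in knockout. The 3 libraries above 2 CPM were in both groups, and the log2 fold change was 0.46 (SE 0.36, edgeR adjusted p = 0.554). It was 0.78 without wild-type replicate 4, 0.31 without wild-type replicate 3 and 0.30 without knockout replicate 1 (adjusted p of 0.442, 0.777 and 0.819).

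Itga5 and Itgb1 made up most of the alpha and beta chain transcript in both genotypes. Of the summed level per kilobase of the 7 alpha chains, Itga5 made up 77.4 ± 4.19% in wild type and 81.2 ± 4.22% in knockout (SD, n = 5 each), and Itgav 12.3 ± 3.27% and 11.7 ± 3.60%. The share of Itga3 was 3.22 to 7.12% in wild type and 2.41 to 3.26% in knockout, with groups that met at their edges. The sum itself was 171 ± 40.6 CPM per kilobase in wild type and 228 ± 27.9 in knockout. Among the beta chains that can join alpha v, Itgb1 made up 76.2 ± 2.27% in wild type and 78.1 ± 3.21% in knockout and Itgb5 23.4 ± 2.16% and 21.6 ± 3.24%. Itgb3 made up 0.334 ± 0.115% and 0.206 ± 0.0604% and Itgb8 0.0195 ± 0.00780% and 0.0246 ± 0.00860%. Itgb6, with at most 9 counts in any library and too few to be tested, made up 0.00500% in wild type and 0.00115% in knockout. Its groups did not overlap, as in 2.05% of all genes tested by level. They nearly met, with the lowest wild-type share at 0.00225% and the highest knockout share at 0.00218%. These shares are descriptions and were not tested.

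Itgb1, the partner of the alpha chains outside the alpha v group, had a log2 fold change of 0.18 with an SE of 0.15 (edgeR adjusted p = 0.572). It was measured at 1988 ± 222 CPM in wild-type and 2260.3 ± 372 in knockout libraries (SD, n = 5 each). Of 16 other integrin subunits 13 were tested, 6 above and 7 below 0 with a median of -0.08, and 0 passed edgeR's test or DESeq2, with 1 at an unadjusted p under 0.05 (13.3% of all genes). That member was Itga1, a collagen receptor chain, at 21.4 to 63.9 CPM in wild-type and 52.6 to 118 in knockout libraries (log2 fold change 0.85, SE 0.28, edgeR adjusted p = 0.310). Itgb4, the laminin receptor chain of hemidesmosomes, had a value of -0.56 (adjusted p = 0.392), and the leukocyte chains Itgax and Itgal had -0.54 and 0.69 (adjusted p of 0.413 and 0.432).

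Log2 fold changes of interstitial ligand genes ran from -0.60 to 1.05 and those of laminin chains from -1.39 to 1.90, beside -0.55 to 0.63 for the 10 integrins. Of 19 interstitial ligands 14 were tested, 7 above and 7 below 0 with a median of 0.20, and 0 passed edgeR's test, while 6 were under 0.05 before adjustment (13.3% of all genes). DESeq2 calls numbered 2 (1.69% of all genes), namely Npnt, a ligand of integrin alpha 8 beta 1, and Fn1, which encodes fibronectin (DESeq2 adjusted p of 2.5e-05 and 0.0436). Fn1 had 3647 to 5986 CPM in wild-type and 3518 to 12747 in knockout libraries, and both genes passed edgeR's test without knockout replicate 5 (adjusted p = 0.0329 for each), as did Fbn1 in a count of 3 (background 1.39%, or 0.884% higher and 0.507% lower). Mfge8, a bridging ligand of alpha v integrins, had a log2 fold change of -0.45 (edgeR adjusted p = 0.287) and Emilin1, an elastic fibre protein bound by alpha 4 and alpha 9 integrins, 0.51 (adjusted p = 0.29998). No library held more than 3 counts of vitronectin, and Ibsp and the 3 fibrinogen genes were at 0.

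Laminin chains, the ligands of Itga3, Itga6 and Itga7, went both ways. Of 11 chains 9 were tested, 7 above and 2 below 0 (48.4% of all genes were above) with a median of 0.27. EdgeR and DESeq2 called 0 of them, and 4 had an unadjusted p under 0.05, beside 13.3% of all genes. Lama5, the alpha chain of laminins of mature basement membranes, was at 137 ± 24.3 CPM in wild-type and 208 ± 71.7 in knockout libraries (SD, n = 5 each), a log2 fold change of 0.60 (edgeR adjusted p = 0.343). Lama1, an embryonic alpha chain, had a log2 fold change of 1.90 with an SE of 0.71 (adjusted p = 0.343), with knockout replicate 1 highest at 57.3 CPM, and its values with single libraries left out ran from 0.79 to 2.17. Lamc3, a low gamma chain at up to 2.35 CPM, had a log2 fold change of -1.39 (edgeR adjusted p = 0.343).

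Genes of latent TGF-beta, the ligand that alpha v integrins act on, also did not pass. All 9 were tested, 7 above and 2 below 0 (48.4% of all genes were above) with a median of 0.17, and edgeR called 0, with 2 under 0.05 before adjustment (13.3% of all genes). The 1 DESeq2 call (1.69% of all genes) was Ltbp4, a latent TGF-beta binding protein (edgeR adjusted p = 0.146, DESeq2 adjusted p = 0.0015). It was at 23.9 to 36.1 CPM in wild-type and 41.3 to 48.6 in knockout libraries. The groups did not overlap, as in 0.961% of all genes with knockout higher. Lrrc32, which encodes GARP, a membrane anchor of latent TGF-beta, was at 835 ± 133 CPM in wild-type and 1168 ± 233 in knockout libraries (SD, n = 5 each), a log2 fold change of 0.49 (edgeR adjusted p = 0.325). Tgfb1, the cytokine itself, was at 146 ± 25.1 and 112 ± 32.8 CPM (-0.38, edgeR adjusted p = 0.405; n = 5 each). Ltbp2, a matrix protein of the same family, had a log2 fold change of 0.41 (adjusted p = 0.413).

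Of 15 genes that TGF-beta is known to induce, 14 were above 0, with a median of 0.27, beside 48.4% of all genes above 0. EdgeR and DESeq2 each called 0 of them, and 2 had an unadjusted p under 0.05 (13.3% of all genes), the type I collagen genes Col1a1 (log2 fold change 0.79, edgeR adjusted p = 0.295) and Col1a2 (0.50, adjusted p = 0.355). The receptor gene Tgfbr1 had 0.47 (adjusted p = 0.400) and Skil, a feedback inhibitor of Smad proteins, 0.30 (adjusted p = 0.411). Some genes of this list are also cell type markers. Both collagen genes are in the fibroblast marker sums above, and Acta2 and Cnn1 are in the contractile sums. The part of cell content in these values was not tested.

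Of 32 genes of integrin activation and the adhesion complex 31 were tested, 18 above and 13 below 0 with a median of 0.06. EdgeR and DESeq2 called 0, and 7 had an unadjusted p under 0.05, 5 higher and 2 lower (13.3% of all genes, 7.19% higher and 6.1% lower). The actin crosslinkers of adhesions, Actn4 and Actn1, had log2 fold changes of 0.54 and 0.39 (edgeR adjusted p of 0.284 and 0.350). Lims1, which encodes PINCH1, a scaffold of integrin-linked kinase, had 0.49 (adjusted p = 0.291, and 0.0497 without knockout replicate 5, where 1.39% of genes were called). Fyn, a kinase of the Src family, had 0.28 (adjusted p = 0.343). Of the genes named in these lists, Fn1, Itga1, Itgb4, Lamc3, Ltbp2, Actn1 and Actn4 share exon sequence with another gene, which had at most 71 counts in any library.

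**Figure D5:**
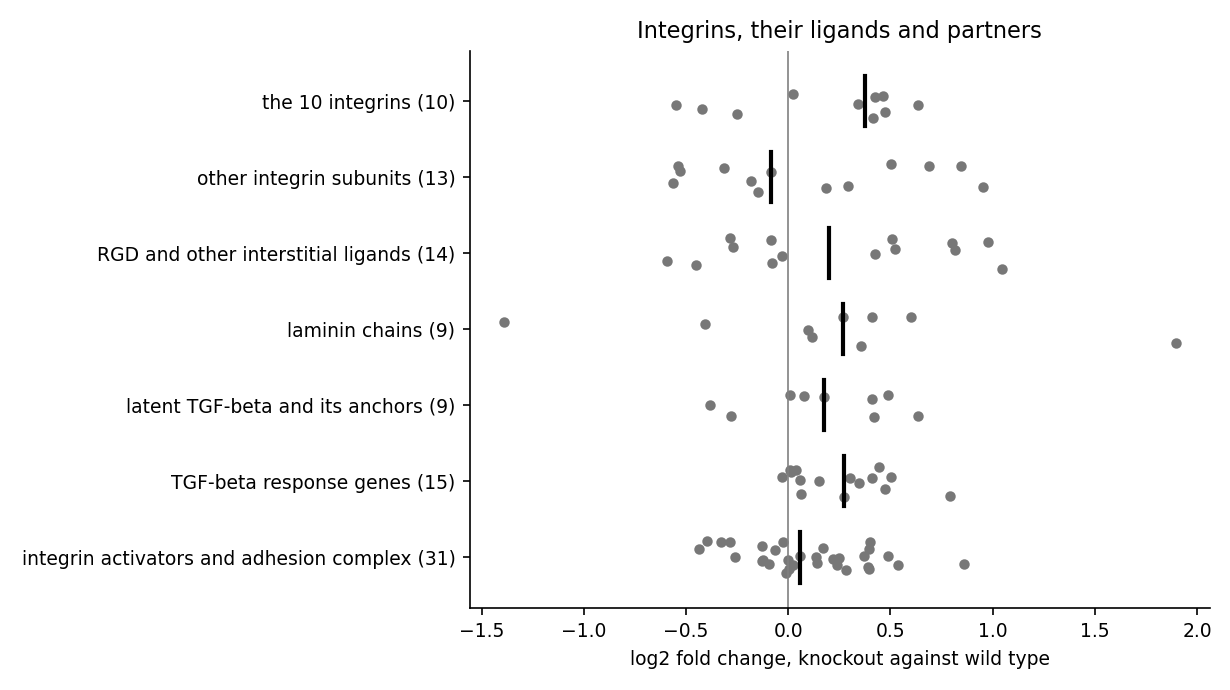
Log2 fold change (knockout against wild type) of each tested gene, 1 point per gene, for the 10 integrins and for 6 lists of their partners and ligands, with the number tested in brackets and the median as a bar. Medians run from -0.08 for other integrin subunits to 0.38 for the 10 integrins.

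The profiles of the 3 most variable members across libraries, by the SD of log2 CPM, were compared with those of 9688 genes whose log2 CPM averaged 3 or more. The measure was the mean absolute difference of log2 CPM over the 10 libraries, with each gene centred on its mean. Itga4 (SD 0.83) was closest to Notch1, Stard9 and Adcy7, at 0.23, 0.24 and 0.27. Itga6 (SD 0.63) was closest to Rassf2, Pgm2l1 and Pik3cg, at 0.15, 0.18 and 0.20. Itgb8 (SD 0.58) was closest to Ttc39b, Meis2 and Abhd2, at 0.23, 0.23 and 0.24.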

How the data were processed

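RNA of 10 cultures was sequenced on an Illumina NovaSeq instrument after poly(A) selection, per the labels' protocols. The authors deposited raw read counts per Ensembl gene, 1 column per library, with the gene length and coordinates. STAR 2.5, HTSeq 0.6.1, DESeq2 2 and mm10 are named, without roles, in the submitters' processing notes. Neither strand setting nor annotation release is given in the sources used here. Member coordinates were the same in GENCODE M21 (mm10).

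Columns were matched to samples by library name and groups came from the titles. The titles number biological replicates without naming animals, so p-values measure the spread between these samples. Between any 2 libraries chi-square per degree of freedom was at least 19.2, far above sampling noise.

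Genes passing filterByExpr (14360 of 28582 with a count) entered edgeR 4.0.16 (R 4.3.3) and its quasi-likelihood F test, using TMM, no covariate, and Benjamini-Hochberg adjustment over all genes, at 0.05. Standard errors are the absolute log2 fold change over the square root of F, and 95% intervals use the t quantile of the fit. Log2 CPM used a prior count of 2. Simulated counts for 14148 genes gave 128 calls, 5 of them false. Intervals and floors cover counting and replicate error only as far as these libraries show it.

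Alternatives were other size factors, other filters, DESeq2 1.42.0, limma-voom (limma 3.58.1), a replicate block, a gene length offset and each library left out. Lists were taken from textbook roles, and 2 of 135 symbols were matched by gene ID. The genes named were Mrc2, the 10 members, Itgb1, up to 4 genes of smallest p in each list (1 of these is not reported here), the genes nearest in profile to 3 members, and Mrc2's neighbours. Fbn1 and the marker pairings were added after their values were seen. The members and lists were chosen with earlier results of these data known.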

Additional observations from a re-analysis of the deposited data

How the results depend on the processing

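EdgeR called 2 genes over all genes tested, and 0 of the 10 integrins under every one of the 18 alternatives. Calls numbered 243 with DESeq2, 146 of them higher, and 1 with limma-voom. With the gene length offset 1 gene was called. With single libraries left out the count ranged from 1 to 203 (129 higher, 74 lower), the 203 without knockout replicate 5. The replicate block called 0 genes, and Mrc2 then had a log2 fold change of -1.78 (adjusted p = 0.0542). Pairing by the numbers in the titles was not apparent, though this check cannot exclude it. The correlation of same-numbered deviations ran from -0.24 to 0.38, 2 of 5 pairs were over 0.1 and 1 of 5 numbers matched itself best. Under the block the integrin log2 fold changes kept their signs, with 0.51 for Itga5 and -0.53 for Itgb3. Itgb5 was the 1 member whose sign turned, with values of -0.0502 to 0.0724 over single libraries left out. The lowest adjusted p of any member under any alternative was 0.0513, for Itgav without knockout replicate 5. Depth limits Itgb8 and Itga4 most. The median of all log2 fold changes was -0.01 with TMM and -0.03 with upper-quartile factors. With upper-quartile factors Itgav was at 0.40 instead of 0.42 and Itgb3 at -0.57 instead of -0.55. The gene length offset moved the members more, Itgav towards 0 at 0.19 and Itgb3 away from 0 at -0.62.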

Other observations

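Integrins that other cell types use were present at uneven levels. The leukocyte chain Itgb2 was at 67.7 to 229 CPM in wild type and 97.7 to 165 CPM in knockout, and Itgam, its partner on macrophages and neutrophils, at 15.6 to 88.4 and 21.1 to 75.0 CPM. Wild-type replicate 5 had the highest value of both. Itgb6, the epithelial partner of alpha v that also activates latent TGF-beta, had at most 9 counts in any library. Itgae and Itgad had at most 10 and 1 counts.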
